A study of Oncorhynchus mykiss with 8 samples.

Results

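The heat shock chaperones hsp70 and hsp90b were followed through a 2-colour array comparison of small and large rainbow trout. Every probe whose platform symbol was hsp70 or hsp90b was taken, in any letter case. This gave 2 of the 174 platform symbols and 4 of 43,603 probes, 1 for hsp70 (A_05_P252849) and 3 for hsp90b (A_05_P249734, A_05_P407712 and A_05_P473112). Only 221 probes of the array carried a symbol, so other chaperone transcripts may be among the 43,382 probes without one. The 3 hsp90b probes were assigned to 1 transcript record and were taken as readings of 1 gene, not as replicates. Whether all 3 read the same gene copy was not checked.

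Hsp70 and Hsp90 are ATP-driven chaperones of the cytosol. Hsp70 holds newly made or unfolded chains with the help of J-domain proteins, and its heat-inducible forms are classic markers of protein damage. Hsp90 acts later in folding, on a set of client proteins that includes steroid hormone receptors, the aryl hydrocarbon receptor and many kinases, and its beta form is made without stress in most vertebrate tissues. Liver, which secretes plasma proteins, and muscle, which folds and assembles myosin with the help of Hsp90, both depend on this machinery.

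All fish were of the Lyndon strain, were fed to satiety and were offspring of neomales, which are genetic females that develop as functional males. Each array set a pool of small fish against a pool of large fish of the same tissue, liver or muscle, each pool being mRNA of 5 fish. Titles and dyes were read as 2 pool pairs per tissue, replicates 1 and 2, each hybridised on 2 arrays with the dyes exchanged (Alexa Fluor 555 and Alexa Fluor 647). That the pools of replicates 1 and 2 hold different fish is an assumption. Ages and body sizes were not given in the sources used here, and the sex of the fish was not stated.

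The deposited values were log2 ratios of both channels, and which channel is the numerator was not given in the sources used here. No value is therefore called higher in small or in large fish. In the turned reading every ratio is taken to run from one dye to the other. Arrays that carried large fish in 647 then had their sign turned, and the 2 arrays of a pool pair were averaged. In the as-deposited reading the authors are taken to have turned those arrays already, and no sign was changed. Values below are turned unless said otherwise. A positive turned value has the direction that is positive as deposited with large fish in the 555 dye. A pool pair's value is a mean, so its sign can differ from that of 1 of its arrays. A ratio holds no transcript level, so neither the levels of these chaperones nor the labelled tissue could be checked. All 4 chaperone probes had a value on all 8 arrays. Over all probes the standard deviation of the log2 ratios was 0.55 to 0.92 per liver array, against 0.32 to 0.33 per muscle array, and 2296 to 3035 values were missing in liver and 428 to 845 in muscle.

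The first question was whether the chaperone transcripts differed between small and large fish in liver. Here the deposited values of the 4 probes were all negative on both arrays with large fish in the 555 dye, and all positive in replicate 1 once the dyes were exchanged. The exchanged array of replicate 2 split them, 2 negative and 2 positive. Turned, 7 of 8 pair values were negative, against 43.0% of the pair values of all probes, or 52.7% with each array centred on its median. No probe of the array passed an adjusted p of 0.05 in limma, 0 of 36,053 against 7346 at an unadjusted p under 0.05, so the values that follow are sizes and not calls. That fit shared 1 spread between liver and muscle. Liver fitted alone had 2646 probes at an unadjusted p under 0.05, and again 0 passed.

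**Figure D1:**
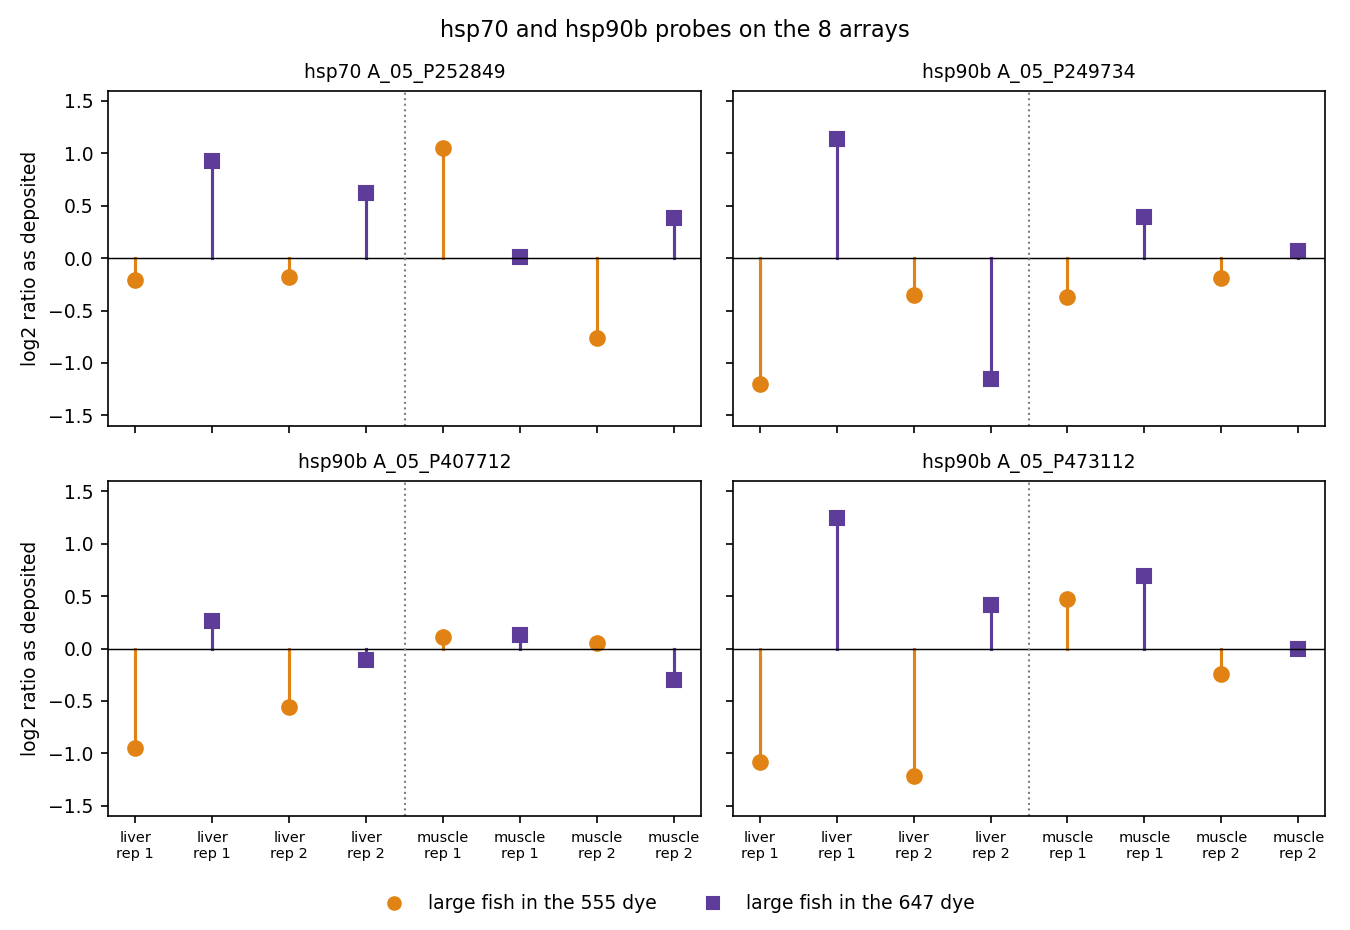
The deposited log2 ratio of each chaperone probe is plotted for the 8 arrays, liver to the left of the dotted line and muscle to its right, with circles for large fish in the 555 dye and squares for large fish in the 647 dye. All 4 probes are below 0 on both liver arrays with large fish in the 555 dye, down to -1.21, while the muscle values of each orientation fall on both sides of 0.

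For hsp70, the deposited liver values came to -0.21 and -0.18 for large fish in the 555 dye and 0.93 and 0.62 with large fish in the 647 dye, replicate 1 being given before replicate 2 here and in later pairs of values. The sign thus changed with the dyes in both pool pairs, and the size was larger in the second orientation. Turned, the pool pairs had -0.57 and -0.40, a mean of -0.49 ± 0.12 (SD, n = 2 pool pairs) or a 1.40-fold ratio, with 1 sign on all 4 arrays. The limma adjusted p was 0.370, with a 95% interval of -1.26 to 0.29 that reaches 0. With liver fitted alone the interval was -0.95 to -0.02, with an adjusted p of 0.600. As deposited, the mean was 0.29 ± 0.10, a 1.22-fold ratio of the other sign, with an adjusted p of 0.610 in limma. In that reading the 2 arrays of a pair should be equal. They differed by 1.14 in replicate 1 and 0.80 in replicate 2. The sign of hsp70 in liver therefore rests on the reading.

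Among the hsp90b probes, A_05_P473112 lay farthest from 0 in liver. Its deposited values came to -1.08 and -1.21 for large fish in the 555 dye and 1.24 and 0.41 with large fish in the 647 dye, so that its sign, too, changed with the dyes in both pool pairs. Turned, the pairs had -1.16 and -0.81, and the mean of -0.99 ± 0.25 (SD, n = 2) was larger in size than that of 96.6% of the liver probes. Its 95% interval of -1.32 to -0.65 left out 0, with an unadjusted p of 0.00104 and an adjusted p of 0.165 in limma. Liver fitted alone gave an interval of -1.52 to -0.46 and an adjusted p of 0.600. Arrays with large fish in the 555 dye only gave -1.68 to -0.61 (adjusted p 0.121). Those with large fish in the 647 dye only gave -1.68 to 0.03, an interval that spanned 0 (adjusted p 0.423). With all arrays entered and the pool pair as a random block, the adjusted p was 0.0282. In that fit arrays of the same RNA count as separate observations, and the 2 arrays of a pair had an estimated correlation of -0.15. With the arrays taken as independent, a choice made after seeing the data, the adjusted p was 0.0569. The probe also passed without liver replicate 1 (adjusted p 0.00838) and without liver replicate 2 (0.00300), where the lone liver pair is assumed to vary as the muscle pairs do and 7159 and 7638 probes passed in all. As deposited, the mean of A_05_P473112 was -0.16 ± 0.34, a 1.12-fold ratio. That mean joins array values of opposite sign in both pool pairs. The 2 arrays differed by 2.32 in replicate 1 and 1.63 in replicate 2, wider than for 95.1% and 90.4% of probes.

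The second probe, A_05_P407712, had deposited liver values of -0.95 and -0.56 with large fish in the 555 dye and 0.26 and -0.11 with large fish in the 647 dye. Most of its deviation came from the first orientation. The mean of 2 pool pairs was -0.42 ± 0.27 turned, with 95% interval -0.79 to -0.05, and -0.34 ± 0.01 as deposited, with 95% interval -0.64 to -0.04. As deposited, the 2 arrays of a pair should be equal, but those of replicate 1 differed by 1.22, wider than for 84.7% of probes. Those of replicate 2 differed by 0.45, against a median of 0.45 over all probes. The SD of 0.01 compares pair means and leaves these gaps out. In the fit of both tissues A_05_P407712 was the only chaperone probe whose interval left out 0 under both readings. Its first-orientation values entered both readings unchanged, so the 2 intervals are not independent. With liver fitted alone, a fit added for the as-deposited reading after seeing the data, its interval spanned 0 (-0.97 to 0.13 turned and -0.74 to 0.06 as deposited), as it did turned after scaling the arrays to one spread (-0.67 to 0.01). Its adjusted p in limma was 0.223 turned and 0.480 as deposited. An unadjusted p under 0.05 with a negative mean was had by 9.39% of all liver probes turned and by 5.39% as deposited. Centring each array on its median raised the turned count from 3384 to 4735 of 36,053. Turned, 2 of the 4 chaperone probes had such a p and mean (A_05_P407712 and A_05_P473112), and as deposited 1 of 4 (A_05_P407712).

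The remaining hsp90b probe, A_05_P249734, had opposite pool pairs. It was deposited in liver as -1.20 and -0.35 for large fish in the 555 dye and 1.14 and -1.15 with large fish in the 647 dye. Replicate 1 was nearly a mirror image between its 2 arrays, whereas both arrays of replicate 2 were negative. Turned, the pairs had -1.17 and 0.40, a mean of -0.39 ± 1.11 (SD, n = 2). The spread between pool pairs exceeded the mean, and the gap between them was wider than for 95.9% of liver probes. As deposited, the pairs had -0.03 and -0.75, a mean of -0.39 ± 0.51. The 2 arrays then differed by 2.34 in replicate 1, wider than for 95.2% of probes, and by 0.80 in replicate 2. Its adjusted p in limma was 0.580 turned and 0.537 as deposited.

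Over its 3 probes, hsp90b had a liver mean of -0.98 in replicate 1 and -0.21 in replicate 2 turned, that is -0.60 ± 0.54 (SD, n = 2 pool pairs). As deposited, it had -0.10 and -0.50, that is -0.30 ± 0.28. The gene mean was thus negative in both pool pairs under both readings, but the readings are not independent. The first-orientation array means of hsp90b (555 for large fish), -1.08 and -0.71, entered both unchanged. As deposited, the -0.10 of replicate 1 joins array means of -1.08 and 0.88. The other orientation alone gave -0.30 ± 0.82 turned, with opposite signs in the 2 pool pairs. For hsp70 the value was negative in both liver pool pairs turned and positive in both as deposited. The gene means are given as descriptions, without a test. Blank spots of the array also deviated in liver. The dark corner spot had liver values of 1.01 and 0.41 turned and -0.25 and 0.30 as deposited, and muscle values of 0.40 and -0.03 turned and -0.08 and 0.55 as deposited. A negative control spot had 1.86 turned and -0.94 as deposited in liver replicate 2, with no value in replicate 1. In muscle it lay between 0.00 and 0.14 turned and between -0.04 and 0.07 as deposited. Their part in the chaperone values was not tested, since no spot intensities were used here.

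**Figure D2:**
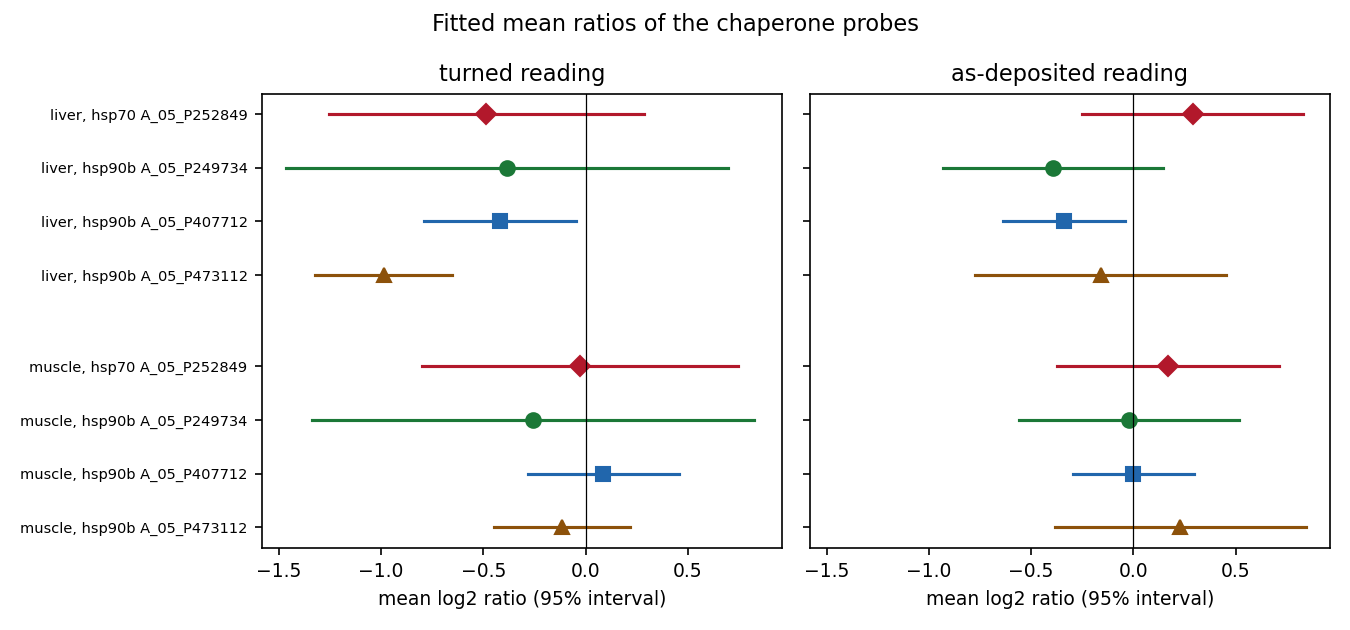
Points give the mean log2 ratio of each chaperone probe over 2 pool pairs and lines its 95% interval from limma, with liver above muscle, the turned reading on the left and the as-deposited reading on the right. The liver interval of A_05_P407712 leaves out 0 in both panels and that of A_05_P473112 only in the turned one, and every muscle interval spans 0.

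The same question was asked of muscle. The turned means of the 4 probes lay between -0.26 and 0.09 and the as-deposited means between -0.02 and 0.23. Over all probes the median size of the turned mean was 0.082 in muscle, against 0.20 in liver. In size, the turned mean of A_05_P249734 exceeded that of 88.2% of muscle probes, and the others exceeded 18.3 to 63.7%. As deposited, A_05_P473112 exceeded 91.6%, hsp70 84.8%, A_05_P249734 18.5% and A_05_P407712 0.571%. In the fit of both tissues, no chaperone probe had an unadjusted p under 0.05 in either reading, against 4.53% of all muscle probes turned and 1.63% as deposited, and all adjusted p values in limma were 1. With muscle fitted alone, A_05_P249734 had an unadjusted p of 0.0447, an interval of -0.50 to -0.0087 and an adjusted p of 0.396 turned.

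The hsp70 probe had the widest muscle values. As deposited it had 1.05 and -0.76 with large fish in the 555 dye, and 0.01 and 0.38 with large fish in the 647 dye, for replicates 1 and 2. Turned, the pool pairs were nearly equal in size and opposite in sign, 0.52 and -0.57, a mean of -0.03 ± 0.77 (SD, n = 2). The gap between them was wider than for 99.4% of muscle probes. As deposited, the pairs had 0.53 and -0.19, a mean of 0.17 ± 0.51. The muscle pool pairs thus disagreed on hsp70 under both readings, while the liver pool pairs agreed on it under both.

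The hsp90b probe A_05_P249734, which split the liver pool pairs, kept 1 sign on all muscle arrays once turned. Its deposited values came to -0.37 and -0.19 with large fish in the 555 dye and 0.39 and 0.07 with large fish in the 647 dye, for a turned mean of -0.26 ± 0.18 (SD, n = 2). As deposited, its arrays cancelled to -0.02 ± 0.05. Negative turned values on all 4 arrays were held by 1 of 4 chaperone probes in muscle, against 8.35% of all probes, and by 2 of 4 in liver (hsp70 and A_05_P473112), against 8.51% (13.1% with each array centred on its median).

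In muscle A_05_P473112 had deposited values of 0.47 and -0.24 for large fish in the 555 dye and 0.70 and -0.0029 with large fish in the 647 dye. Turned, both pool pairs came to -0.11 and -0.12, but each is the mean of 2 arrays that differed by 1.17 in replicate 1 and 0.25 in replicate 2 once turned. As deposited, its pairs had 0.58 and -0.12, a mean of 0.23 ± 0.50. For A_05_P407712 the 4 deposited muscle values lay between -0.30 and 0.13, with a mean of 0.09 ± 0.13 turned and -0.0008 ± 0.17 as deposited. Over the 3 probes, the hsp90b mean in muscle was -0.10 ± 0.10 turned and 0.07 ± 0.24 as deposited.

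**Figure D3:**
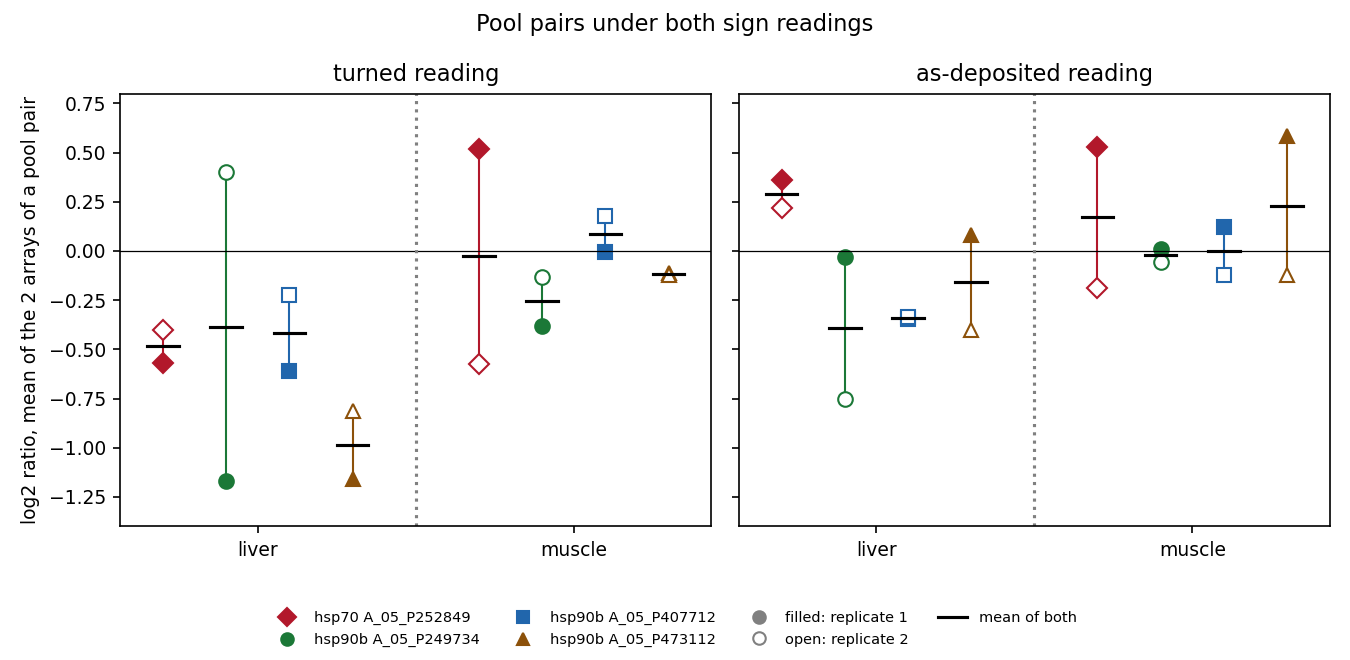
The value of each pool pair, the mean of its 2 arrays on the log2 scale, is shown for the 4 chaperone probes in liver and muscle, turned on the left and as deposited on the right, with filled symbols for replicate 1, open symbols for replicate 2 and a black bar for their mean. In liver the turned pairs are below 0 except A_05_P249734 in replicate 2 at 0.40, and in muscle the as-deposited pairs of all 4 probes are above 0 in replicate 1 and below 0 in replicate 2.

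As deposited, all 4 chaperone probes had a positive muscle value in replicate 1 (0.01 to 0.58) and a negative one in replicate 2 (-0.19 to -0.06). This order was found in 25.9% of all muscle probes. Transcripts that mark hepatocytes had the same order in muscle at 5 of 5 probes (alb1, antithrombin and 3 of trf), with 0.18 to 0.79 for replicate 1 against -1.44 to -0.64 for replicate 2. The alpha globin hba, which marks red blood cells, had it at 2 of 3 probes. The skeletal muscle markers mlc-2 and prvb had it at 0 of 5, the adipocyte marker pparg at 0 of 1, and trp-i, listed for exocrine pancreas although the identity of that symbol is uncertain, at 1 of 2 (0.83 and -0.48). Turned, the hepatocyte probes did not have this order. All of them were negative in both muscle pool pairs, with -0.38 to -0.13 in replicate 1 and -0.40 to -0.03 in replicate 2. Ratios give no level of any of the markers named here, and their part in the chaperone values was not tested. Fewer cells of a type and less RNA per cell cannot be told apart in such pools.

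Liver was then set against muscle. The liver ratio was lower than the muscle ratio at each of the 4 probes turned, by 0.87 for A_05_P473112 (liver mean -0.99, muscle mean -0.12), 0.50 for A_05_P407712 (-0.42 and 0.09), 0.46 for hsp70 (-0.49 and -0.03) and 0.13 for A_05_P249734 (-0.39 and -0.26). The intervals of these differences were wide, from -1.34 to -0.40 for A_05_P473112 and from -1.55 to 0.63 for hsp70. Their adjusted p values in limma ran from 0.546 to 0.941. Only A_05_P473112 had an unadjusted p under 0.05, at 0.00644, as did 8.97% of all probes tested in both tissues. As deposited, the differences (liver minus muscle) were -0.39, -0.34, 0.12 and -0.37 in the same order, with adjusted p values of 0.842 to 0.944. None of the 4 had an unadjusted p under 0.05, as 4.94% of all probes did, so with all pool pairs a difference between the tissues was not shown for any chaperone probe. Without liver replicate 1, the turned difference was -0.70 for A_05_P473112 and 0.66 for A_05_P249734. Without liver replicate 2 it was -1.04 and -0.91. A lone liver pair has no spread of its own, so these are sizes and not calls.

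More chaperone probes had 1 sign in both pool pairs in liver than in muscle, but the gaps between pool pairs did not follow these counts. Turned, the gaps in liver and muscle were 1.57 and 0.25 for A_05_P249734, 0.38 and 0.19 for A_05_P407712, and 0.35 and 0.007 for A_05_P473112. Only hsp70 had the narrower gap in liver, 0.17 against 1.09. As deposited, only A_05_P249734 had the wider gap in liver, 0.72 against 0.07. Turned, 3 of 4 chaperone probes had 1 sign in both liver pool pairs, all 3 of them negative, against 62.1% of all probes with 1 sign and 24.8% with both negative (34.4% with each array centred on its median). As deposited it was again 3 of 4, against 55.1%, with hsp70 positive and A_05_P249734 and A_05_P407712 negative. In muscle the pool pairs had 1 sign at 2 of 4 probes turned (A_05_P249734 and A_05_P473112), against 57.4%, and at 0 of 4 as deposited, against 47.0%. Of the pair values, 5 of 8 were negative in liver as deposited (47.6% over all probes), and in muscle 6 of 8 turned (47.5%) and 4 of 8 as deposited (49.6%). Counts over 4 probes that share arrays, 3 of them assigned to one transcript record, carry no test.

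The 2 arrays of a pool pair were then compared. Under the turned reading they should have opposite deposited values, and under the as-deposited reading equal ones. In liver 6 of 8 chaperone pairs of values had opposite signs, against 59.2% of all probes, and in muscle 4 of 8, against 51.5%. By pool pair the count was 4 of 4 in liver replicate 1, where 65.2% of all probes did so, and 2 of 4 in liver replicate 2, where 53.2% did. It was 1 of 4 in muscle replicate 1 (53.7%) and 3 of 4 in muscle replicate 2 (49.2%). Across all probes, which are not independent replicates, the deposited values of both arrays correlated with r = -0.21 in liver replicate 1, -0.04 in liver replicate 2, -0.08 in muscle replicate 1 and 0.08 in muscle replicate 2. All 4 chaperone probes thus had opposite signs in the pool pair where the most other probes did so too, and the 3 other pool pairs were divided.

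**Figure D4:**
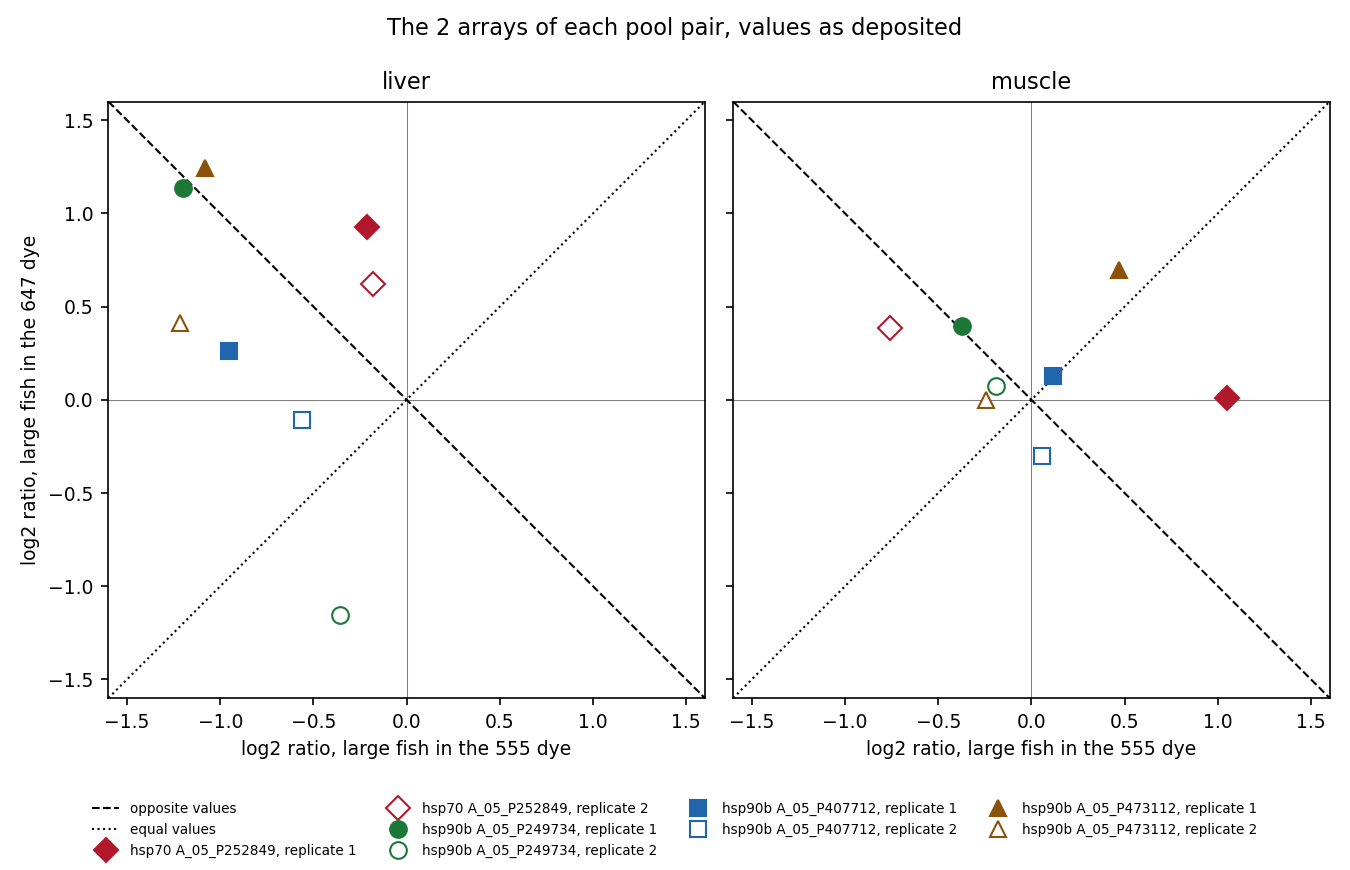
Each point sets a chaperone probe's deposited log2 ratio with large fish in the 555 dye (horizontal) against that with large fish in the 647 dye (vertical), liver on the left, muscle on the right, filled for replicate 1 and open for replicate 2. The dashed line marks opposite values and the dotted line equal values, and 6 of 8 liver points and 4 of 8 muscle points have opposite signs, with A_05_P249734 and A_05_P473112 of liver replicate 1 near the dashed line at its upper end.

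In liver replicate 1 the 2 arrays of A_05_P249734 differed by 0.06 once turned and those of A_05_P473112 by 0.16, against a median of 0.30 over all probes. Those of hsp70 and A_05_P407712 differed by 0.72 and 0.69, wider than for 80.3% and 79.2% of probes. In liver replicate 2 the gap was 1.51 for A_05_P249734, wider than for 88.9% of probes, and between 0.44 and 0.80 for the others, against a median of 0.40. Leaving that replicate's dye-exchanged array aside, a step chosen after its values were seen, the turned values of all 4 chaperone probes were negative on the other 3 liver arrays, as they were for 18.4% of all probes. That share was taken without centring the arrays. The array left aside was the only liver array that split the 4 probes, so their agreement followed from that choice. The share is therefore no background for it.

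The hsp90b probes of one transcript record had a higher likeness in liver than in muscle at each of their 3 pairings, although their log2 ratios lay farther apart in liver. Likeness was measured as the uncentred correlation of deposited values, which is the same under both readings, over arrays that share pools and dyes. Over the 4 liver arrays it was 0.84 between A_05_P407712 and A_05_P473112, 0.76 between A_05_P249734 and A_05_P407712, and 0.62 between A_05_P249734 and A_05_P473112. Over the 4 muscle arrays these were 0.42, -0.13 and 0.29. This likeness was not computed for the probes of other symbols, so it has no background here. The standard deviation over the 3 probes, averaged over the pool pairs, was 0.46 turned and 0.22 as deposited in liver, and 0.18 and 0.17 in muscle. Among the 29 platform symbols with at least 2 fully measured probes, 7 spread wider than hsp90b in liver turned and 14 as deposited, where hsp90b was the median, and in muscle 15 did so turned and 17 as deposited. Turned, the hsp90b probes ran from -1.17 to -0.61 in liver replicate 1, all on one side of 0, and from -0.81 to 0.40 in replicate 2. As deposited it was the other way round, with -0.34 to 0.08 in replicate 1 and -0.75 to -0.33, all on one side of 0, in replicate 2.

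Among the hsp90b probes, the hsp70 probe resembled A_05_P473112 most, with a likeness of 0.63 over 8 arrays and 1 sign on 7 of them. It had 0.21 with A_05_P407712 and 0.12 with A_05_P249734. The hsp70 probe and the hsp90b mean had a likeness of 0.39 and 1 sign on 6 of 8 arrays. Over 73 other named genes the median likeness to hsp70 was 0.096. Those ranked 1 to 5 had 0.78 to 0.65, and the one ranked 16 had 0.41. Turned, hsp70 exceeded the hsp90b mean by 0.41 in liver replicate 1 and by 0.69 in muscle replicate 1, and lay below it in both replicates 2, with differences of -0.19 in liver and -0.55 in muscle. As deposited, hsp70 exceeded the hsp90b mean by 0.46 and 0.72 in the liver pool pairs and by 0.29 in muscle replicate 1. The difference was -0.09 in muscle replicate 2. The liver means of both genes thus had 1 sign turned and opposite signs as deposited. Turned, the genes kept no fixed order in either tissue, and as deposited they kept one in liver only.

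The named genes whose 8 values were most like those of the hsp90b mean were rtn4, a reticulon of the endoplasmic reticulum membrane, with a likeness of 0.95, ahr2g, a form of the aryl hydrocarbon receptor whose symbol was not on the client list below, and antithrombin, an inhibitor of clotting secreted by the liver, both with 0.94. Other forms of that receptor did not share the likeness of ahr2g, with 0.63 for ahr2b, -0.36 for ahr2a, -0.52 for ahr2d and -0.61 for ahr1. In liver rtn4 had deposited values of -1.53 and -0.91 for large fish in the 555 dye, and 0.83 and -0.40 with large fish in the 647 dye. These follow the hsp90b means of -1.08 and -0.71, and 0.88 and -0.28. Among 34,753 other probes, 127 were as like hsp90b as rtn4 was, or more so, and the median likeness over 73 named genes was 0.12. For hsp70 the closest genes were irf-2, an interferon regulatory factor, with 0.78, pparb2a, a lipid-sensing nuclear receptor, with 0.70, and vdr0, a vitamin D receptor, with 0.68, and 107 other probes were as like it as irf-2 was.

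Of 45 other chaperones and co-chaperones and 4 heat shock factor symbols searched for, 0 had a probe under that name. Of 30 symbols of receptors and kinases that bind Hsp90 as clients, 5 had one, namely the aryl hydrocarbon receptors ahr1, ahr2a, ahr2b and ahr2d and the oestrogen receptor esr1, with 6 probes in all. None of them passed in limma, 0 of 6 in either tissue or reading. An unadjusted p under 0.05 was had by 2 of 6 in liver turned (ahr2b and 1 esr1 probe), against 20.4% of all liver probes, and by 1 of 6 in liver as deposited (the other esr1 probe), against 9.97%. In muscle it was 0 of 6 in both readings, against 4.53% turned and 1.63% as deposited. In liver 3 were positive and 3 negative turned, with a median of -0.17 against 0.04 over all liver probes. The negative ones were both esr1 probes, with -0.66 ± 0.25 and -0.39 ± 0.37 (SD, n = 2 pool pairs), and ahr2b with -0.52 ± 0.38, while ahr1 had 0.36 ± 0.80, ahr2d 0.31 ± 0.23 and ahr2a 0.05 ± 0.27. As deposited, 2 were positive and 4 negative in liver, between -0.33 and 0.26. In muscle the client probes lay between -0.15 and 0.21 turned and between -0.11 and 0.34 as deposited. The client receptors thus had ratios of both signs in each tissue and reading.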

How the data were processed

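The authors deposited 1 table with a log2 ratio per array and spot. No header or label gives its software, background correction, normalization or direction. The unit was read from the values: raised as powers of 2, 86.8 to 95.5% of moderate values on each array fell on ratios rounded to 3 decimals (tolerance 0.05 thousandths), against 9.32 to 10.3% with the sign turned. Both dye orientations had this pattern. Under the as-deposited reading the ratios would thus have been turned before they were rounded, which could not be checked. Without intensities no dim spot could be left out, and the number of arrays limits the precision. The 60 control spots were removed. Symbols came from the platform annotation of these probes. In the reference annotation (assembly USDA_OmykA_1.1), 0 accessions of all named probes were found, those of the chaperones included. That annotation lists, among others, hsp70a, hsp70b, hsc70 and hspa8, and hsp90ab1 and hsp90bb. Which copy a probe reads is therefore unknown, and neither sequences nor positions are given.

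Each pool pair was 1 replicate, the mean of its 2 arrays. limma 3.58.1 in R 4.3.3 fitted all probes with tissue as group, no intercept and empirical Bayes moderation (2 residual and 2.21 prior degrees of freedom), two-sided, with Benjamini-Hochberg adjustment over 36,053 liver, 41,652 muscle and 34,757 shared probes having all values. Each probe thus had 1 residual spread for both tissues, although liver ratios varied more than muscle ratios over all probes. An unadjusted p under 0.05 was had by 7346 liver probes in this fit and by 2646 with liver fitted alone. In muscle the counts were 1885 and 5046. Liver intervals and p-values of the shared fit may therefore be too small for many probes. The fit was tested on simulated data with shifts far larger than the chaperone ratios, so that test does not show its power at their size. Replicates were separate pools only as read from titles, so p-values may measure technical spread. Every chaperone probe was named, with the 3 genes most like each gene. Members and lists were chosen with earlier results of these data known. Lists covered other chaperones, their regulators, Hsp90 clients and markers of hepatocytes, skeletal muscle, red blood cells, leukocytes, exocrine pancreas and adipocytes. Leukocyte markers had 0 probes, trp-i (2 probes, a symbol of uncertain identity) and pparg (1 probe) were the only hits of the pancreas and adipocyte lists, and 0 of these passed. Alternatives changed the sign reading, centring, scaling, filter, dye orientation, block, spread and replicates.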

Additional observations from a re-analysis of the deposited data

How the results depend on the processing

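The number of liver probes past an adjusted p of 0.05 in limma was 0 except with all arrays and the pool pair as a random block (1864), with all arrays taken as independent (418) and when 1 pool pair was left out (0 to 7638). In muscle it was 0 except after scaling the arrays to one spread (1), when fitted alone (3) and with 1 pool pair left out (0 to 3), and for liver minus muscle it was 0 to 4533 with 1 pool pair left out. A lone liver pair is assumed to vary as muscle does, and counts of 4117 or more come from such fits. With the replicate number as a replicate block 0 passed for liver minus muscle, and none of the chaperone calls changed. The labels do not say that a number marks shared fish, and the differences between replicates correlated across probes with r = 0.07 between the tissues.

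A gene mean was said to move if it changed by more than its turned SD over 2 pool pairs. The hsp70 liver mean (SD 0.12) moved to 0.29 as deposited, to -0.34 after scaling, to -0.20 with large fish in the 555 dye only and to -0.77 with large fish in the 647 dye only, and the hsp90b muscle mean moved to 0.069 as deposited. The hsp90b liver mean had an SD of 0.54, so wide changes did not count as moves. It was -0.60 turned and -0.30 as deposited. With large fish in 1 dye only it was -0.89 (555) and -0.30 (647), and with 1 pool pair left out -0.21 and -0.98. As deposited, and also where fitted alone, the muscle means of hsp70 (0.17), A_05_P473112 (0.23) and A_05_P407712 (-0.0008) and the liver mean of hsp70 (0.29) had the other sign, as did the liver minus muscle difference of hsp70 (0.12). With large fish in the 555 dye only the muscle means of hsp70 (0.14) and A_05_P473112 (0.11) had the other sign. With large fish in the 647 dye only A_05_P249734 had 0.0073 in liver and 0.24 for liver minus muscle, and scaling gave 0.012 for that difference. With 1 pool pair left out, values ranged from -1.17 to 0.40 for A_05_P249734 in liver and -0.91 to 0.66 for its difference, from -0.57 to 0.52 for hsp70 in muscle and -1.004 to 0.087 for its difference, and from -0.0060 to 0.18 for A_05_P407712 in muscle. In liver, A_05_P407712 had -0.23 without liver replicate 1 and -0.61 without liver replicate 2. For A_05_P473112 these values were -0.81 and -1.16, with differences from muscle of -0.70 and -1.04. The cause of these changes was not tested beyond the number of pairs left. Of 116 single-probe values under the other alternatives 101 kept their direction and side of the threshold. That count includes fits that could not change a direction. The looser filter, the random block, the arrays taken as independent, a tissue fitted alone and the replicate block leave these means as they were. All 14 reversed directions came from the sign reading, the scaling or a single dye orientation. The count is therefore no measure of stability. The opposite-sign counts of the chaperone arrays, 6 of 8 in liver and 4 of 8 in muscle, were unchanged after centring each array on its median.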
